A study of Mus musculus with 7 samples.

Results

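The ribosomal protein genes were taken as every feature whose symbol begins with Rpl or Rps followed by a digit, which selected 97 of the 33696 genes in the deposited count tables. Single-cell RNA-seq had been performed on 7 subcutaneous flank tumors grown from the murine malignant peripheral nerve sheath tumor (MPNST) line JW23.3, which carries a mutation of Nf1. Each tumor arose from cells implanted on day 0 into a 5- to 6-week-old female wildtype C57/B6 mouse. Mice were randomized on day 7, after which 4 tumors received focal radiation in 5 daily fractions of 2 Gy and 3 control tumors received none, and all tumors were harvested on day 21. All tumors came from the same cell line, so the MPNST values describe JW23.3 and no other MPNST. About 10000 cells were loaded per library, with 1 library per tumor.

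A cytosolic ribosome is built from a large and a small subunit, whose proteins carry the prefixes Rpl and Rps. The mRNAs of these proteins are among the most abundant in a growing cell and begin with a stretch of pyrimidines, the 5′ TOP motif, through which mTORC1 signaling adjusts their translation. Several of the proteins have a second gene, a paralog, that some tissues use in place of the common copy. Rpl39l and Rpl10l are best known from testis, and Rpl3l from heart and skeletal muscle.

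Of the 97 symbols, 43 encode large subunit proteins and 30 encode small subunit proteins. A further 9 are paralogs (Rpl36al, Rpl22l1, Rps27l, Rpl39l, Rpl7l1, Rps27rt, Rpl3l, Rps23rg1 and Rpl10l). The pattern also took in genes that are not part of the ribosome. There were 10 kinases named for the small subunit protein S6 (Rps6ka1 to Rps6ka6, Rps6kb1, Rps6kb2, Rps6kc1 and Rps6kl1), the binding protein gene Rps19bp1 and 4 pseudogene symbols. Large subunit genes supplied 55.4% of the UMIs (unique molecular identifiers, 1 for each captured mRNA molecule) of the 97 genes, and small subunit genes supplied 43.5%. Paralogs supplied 0.891% and the S6 kinases 0.224%. The 97 genes together made up 88995159 of 646559899 UMIs, or 13.8%.

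Promoter windows are shown first for the paralog pairs on which the results turn, because each pair is transcribed from separate loci. Each window holds 10 bases before the annotated transcription start and the first 20 bases of the first exon, read 5′ to 3′ on the strand of the gene from RefSeq promoters of build GRCm38.p6. Capitals mark the letters CTTTC, which lie within the pyrimidine stretch of many ribosomal protein gene starts. The pair Rps27 (chr3:90213629-90213658, minus strand) and Rps27l (chr9:66946076-66946105, plus strand), the pair Rpl39 (chrX:37085203-37085232, minus strand) and Rpl39l (chr16:10170218-10170247, plus strand) and the pair Rpl22 (chr4:152325716-152325745, plus strand) and Rpl22l1 (chr3:28805498-28805527, plus strand) read as follows.
Rps27: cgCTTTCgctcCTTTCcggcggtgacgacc
Rps27l: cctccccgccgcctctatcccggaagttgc
Rpl39: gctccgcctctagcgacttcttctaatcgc
Rpl39l: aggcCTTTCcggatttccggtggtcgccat
Rpl22: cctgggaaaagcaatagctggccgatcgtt
Rpl22l1: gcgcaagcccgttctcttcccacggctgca

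Within these pairs, Rps27 and Rpl39l hold the letters and their partners do not. RefSeq promoters were matched for 73 of the 97 genes, and 15 of those windows, or 20.5%, held CTTTC on the gene's strand. Among all 27025 promoters the share was 3.66%. The letters of the opposite strand, GAAAG, were found in 4.11% of the matched windows and in 3.54% of all windows. A match is a description of letters and not a mapped start or a measured binding site.

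The libraries held 2859 to 8452 cells and 53496570 to 153044123 UMIs, and 190 barcodes occurred in more than 1 library. Cells within 3 median absolute deviations of their library in UMIs, genes and mitochondrial share were kept, leaving 34956 of 39537. Cells were then sorted into classes by counting the markers of each class, with a class named MPNST-like only where no Xist or Tsix UMI was seen, since the hosts were female and the line is male. The classes MPNST-like, macrophage-like, T/NK-like, dendritic-like, endothelial-like and pericyte-like are called MPNST, macrophage, T/NK, dendritic, endothelial and pericyte below, and 17.0% of kept cells entered no gate. The fibroblast gate was set aside because MPNST genes that no gate used were high in it. A class was used in a tumor where it had at least 20 cells, so irradiated 2 had no dendritic or endothelial value and irradiated 4 had no pericyte value. By cell number, depth, mitochondrial share and stress genes the libraries split best into irradiated 1, control 2 and control 3 (technical set 1) and irradiated 2, 3 and 4 with control 1 (technical set 2), so that radiation and technical set partly overlapped. The labels name no such batch. Of 63 splits compared, this one left 0.580 of the variation in these measures within the sets, and the next best left 0.626. Whether these measures themselves changed with radiation was not tested, so a fit with the set as a term may also remove part of a radiation difference.

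A second pair of libraries stood apart in the ribosomal protein genes themselves. Control 1 and irradiated 2 held the highest levels of 11 of the 73 subunit genes in MPNST, macrophage and T/NK cells alike (Rpl35, Rps29, Rpl38, Rps28, Rps27, Rpl39, Rpl41, Rpl36, Rpl37, Rpl37a and Rpl6), as a share of subunit gene UMIs. For 8 genes, among them Rpl7, Rpl27, Rpl30 and Rpl23a, the same libraries were the lowest in all 3 classes. Any same pair of libraries was highest in all 3 classes for 17 genes. Of the 11 genes, 9 have a coding length under 350 bases, against 14 of all 73, and their median coding length was 252 bases against 468.

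Rps29, a short zinc-binding protein of the small subunit, shows the pattern most plainly. In MPNST cells its level was 1784, 983 and 1179 CPM (the gene's UMIs scaled to a fixed total for the class and tumor, counts per 1e6) in control 1, 2 and 3 and 1042, 1941, 1065 and 971 CPM in irradiated 1, 2, 3 and 4. In macrophages the same tumors gave 3641, 1882 and 1977 CPM and 1981, 3687, 2058 and 1861 CPM. Both high values in each class came from control 1 and irradiated 2, a control and an irradiated tumor. Averaged over the 3 classes, their log2 share lay above that of the other 5 libraries by 0.98 for Rpl35, 0.90 for Rps29, 0.78 for Rpl38, 0.72 for Rps28, 0.58 for Rps27 and 0.48 for Rpl39. These differences were seen in the data first and carry no test. Class differences printed below for the pair shares of Rps27l or Rpl39l are given without both libraries as well. Irradiated minus control differences of these pair shares were not recomputed without both.

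The recurrence across classes was described with the deviation of each of the 73 genes from its own mean over tumors. Between pairs of classes the deviations had Pearson's r of 0.904 to 0.955 in control 1, 0.844 to 0.914 in control 2, 0.826 to 0.902 in control 3 and 0.856 to 0.920 in irradiated 2. The values were 0.537 to 0.743 in irradiated 1, 0.350 to 0.678 in irradiated 3 and 0.489 to 0.803 in irradiated 4. These are correlations across genes of classes that share a library, so the genes are not independent replicates.

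The first question was how much of each cell class's RNA came from ribosomal protein genes. The share of UMIs had its highest mean in MPNST cells, at 14.0% ± 2.10 (SD, n = 7 tumors), followed by T/NK cells at 13.3% ± 0.760 (n = 7) and dendritic cells at 13.2% ± 1.02 (n = 6). Macrophages had 11.9% ± 0.782 (n = 7), endothelial cells 10.6% ± 1.36 (n = 6) and pericytes 9.06% ± 1.63 (n = 6). Differences within tumors separated some neighbors in this order and not others. MPNST exceeded T/NK cells in 5 of 7 tumors by a mean of 0.672 ± 2.19 percentage points, which is within the spread between tumors. MPNST exceeded dendritic cells in 3 of 6 tumors, by 0.667 ± 2.17 points, and the sign turned without control 3 and with medians over cells. MPNST exceeded macrophages in 6 of 7 tumors by 2.10 ± 1.94 points and exceeded pericytes in 6 of 6 tumors by 5.47 ± 1.88 points. Macrophages lay below T/NK cells in 6 of 7 tumors, by a mean difference of -1.43 ± 1.17 points. T/NK cells exceeded both endothelial cells and pericytes in 6 of 6 tumors. The classes also differed in depth. Median UMIs per cell were 14320 to 30980.5 in MPNST cells, 3986 to 11692 in macrophages and 2091 to 5558 in T/NK cells. Within each of these classes the share rose with depth in every tumor. The classes were not compared at like depth, so the part of depth in their order was not tested.

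**Figure D1:**
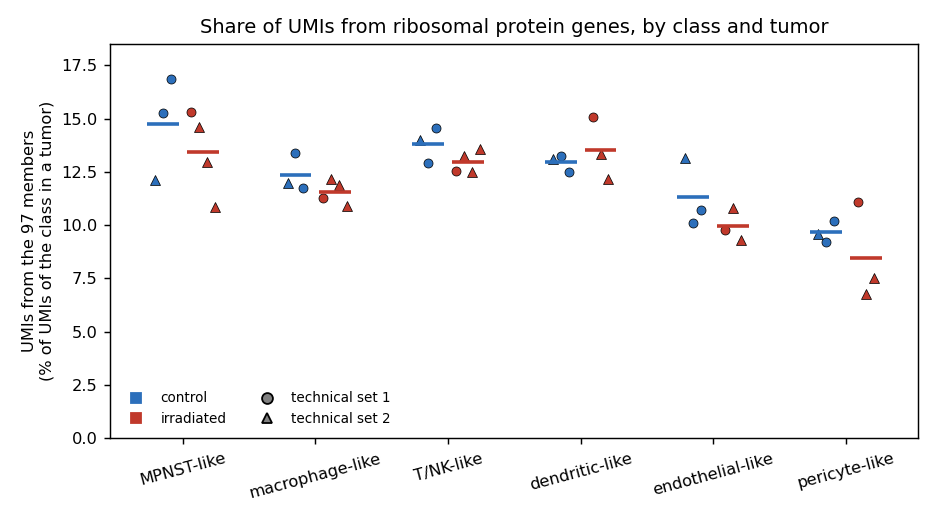
Share of UMIs from the 97 ribosomal protein genes (percent) in each cell class, with 1 point per tumor (circles for technical set 1, triangles for set 2) and lines at the mean of control and of irradiated tumors. MPNST cells span 10.9% to 16.9%, the widest range of the classes used in all 7 tumors, and pericytes lie lowest on average.

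MPNST cells varied most between tumors in absolute terms among the classes with 7 values. Their share was 12.1%, 15.3% and 16.9% in control 1, 2 and 3 and 15.3%, 14.6%, 13.0% and 10.9% in irradiated 1, 2, 3 and 4. The irradiated mean was 13.4% ± 1.99 (n = 4) and the control mean 14.8% ± 2.43 (n = 3), and 1 irradiated tumor lay below every control. Technical set 1 had a mean of 15.8% ± 0.911 (n = 3) and set 2 of 12.6% ± 1.58 (n = 4), with no overlap. The irradiated minus control difference of -1.32 points was -3.03 points without control 1 and irradiated 2. Leaving out 1 tumor at a time it ranged from -2.64 points without control 1 to -0.255 points without control 3. The difference was -0.756 points within technical set 1, 0.701 points within set 2 and 0.016 points with the set as a term.

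In macrophages the share was 11.97%, 13.4% and 11.7% in the controls and 11.3%, 12.1%, 11.9% and 10.9% in the irradiated tumors, in the same order. Their means were 12.4% ± 0.891 and 11.6% ± 0.568, and the groups overlapped. The T/NK cells of the controls had 14.0%, 12.9% and 14.6% and the irradiated tumors 12.5%, 13.2%, 12.5% and 13.6%, with means of 13.8% ± 0.833 and 13.0% ± 0.530. Of the 4 irradiated tumors, 2 lay below every control in either class. A share summed over genes that were chosen as a list was given no p-value.

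The smaller host classes had fewer cells and 3 tumors in each group. Dendritic cells had 13.1%, 13.3% and 12.5% in the controls and 15.1%, 13.3% and 12.2% in irradiated 1, 3 and 4, with means of 13.0% ± 0.411 and 13.5% ± 1.47. Endothelial cells had 13.2%, 10.1% and 10.7% in the controls and 9.76%, 10.8% and 9.30% in irradiated 1, 3 and 4, with means of 11.3% ± 1.61 and 9.96% ± 0.769. Pericytes had 9.58%, 9.21% and 10.2% in the controls and 11.1%, 6.78% and 7.51% in irradiated 1, 2 and 3, with means of 9.66% ± 0.494 and 8.46% ± 2.31. Control and irradiated tumors overlapped in all of these classes. For dendritic cells the difference was 0.572 points, within a pooled SD of 1.08 points, and its sign turned without irradiated 1, at -0.211 points, and within technical set 2.

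Ribosomal protein content also differed within classes. MPNST cells with UMIs from at least 4 of 8 proliferation genes such as Mki67 and Top2a had a share of 16.7% ± 1.76, against 11.2% ± 2.75 in MPNST cells with none (n = 7 each). The cycling cells were higher in 7 of 7 tumors, by 5.56 ± 1.55 percentage points. They were also deeper, with 37494 against 21426 UMIs per cell (median of the tumors' medians). Within the middle of the UMI range, where the medians were 27801 and 25084.5, the difference was 3.20 ± 1.28 points and again positive in 7 of 7 tumors. Cycling macrophages had 12.4% against 11.5% and were higher in 5 of 7 tumors, and in the middle of the UMI range the difference was 0.403 ± 1.27 points, within the spread between tumors.

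Within the T/NK class, CD8-like cells had a higher share than CD4-like cells in 6 of 6 tumors. The mean was 15.8% ± 1.08 in CD8-like cells and the difference 4.29 ± 1.30 points, or 3.83 ± 1.41 points in the middle of the UMI range, and irradiated 2 had under 20 CD8-like cells. CD4-like cells had 12.7%, 12.5% and 12.7% in control 1, 2 and 3 and 10.8%, 11.4%, 10.1% and 10.2% in irradiated 1, 2, 3 and 4. Every irradiated tumor therefore lay below every control in CD4-like cells, with 31 to 58 such cells per tumor. In every other class and subset whose share was computed the groups overlapped, so this is the only separation among them. Among all genes tested in T/NK cells, 6.43% had groups that did not overlap in CPM, which is not a matched background. In CD8-like cells the controls had 17.1%, 15.8% and 15.9% and irradiated 1, 3 and 4 had 13.9%, 15.5% and 16.4%, which overlapped. These subsets were formed from 1 or more UMIs of Cd4, or of Cd8a or Cd8b1, and shares in them have no test. Ly6c2 monocytes had a lower share than C1q macrophages in 5 of 6 tumors, at 10.0% against 11.9%. They were also shallower, and in the middle of the UMI range the difference was -0.844 ± 1.31 points (n = 7), within the spread between tumors.

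**Figure D2:**
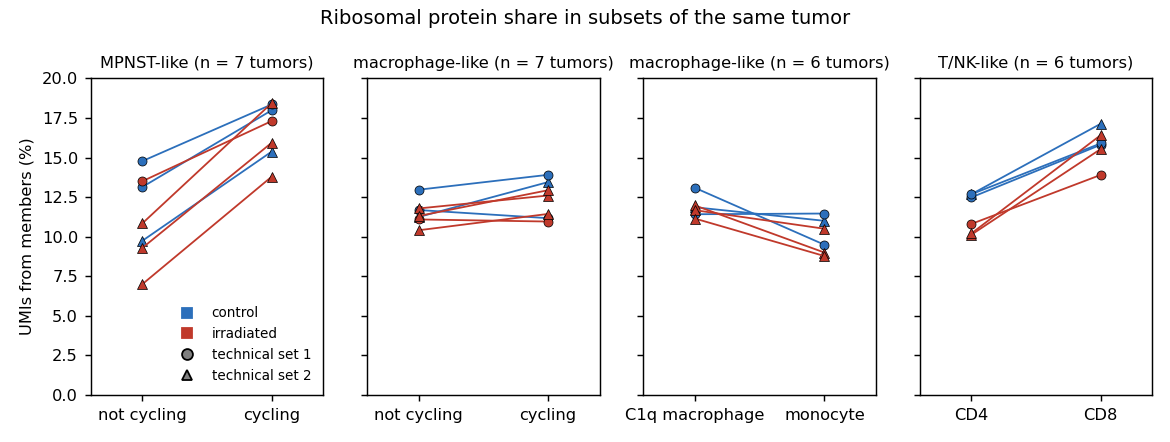
Share of UMIs from the 97 genes (percent) in cells sorted within a class by cycling, T cell or monocyte genes, with 1 point per tumor and lines joining subsets of the same tumor. Cycling MPNST cells lie above MPNST cells that were not cycling in all 7 tumors, and CD8-like cells lie above CD4-like cells in all 6 tumors with both.

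Among single MPNST cells the share went with depth and went against other measures of the cell's RNA. Within a tumor, Spearman's rho with total UMIs was 0.29 to 0.52, with mitochondrial share -0.60 to -0.45 and with the share of Malat1, a nuclear noncoding RNA, -0.77 to -0.59. In the shallowest quartile of MPNST cells by UMIs the share was 10.4%, and in the deepest quartile 17.5% (medians over tumors). In T/NK cells the rho with mitochondrial share was -0.02 to 0.28 and that with Malat1 -0.72 to -0.51. The percentage of MPNST cells with a share under 5% was 22.5%, 12.5% and 4.98% in the controls and 9.49%, 21.8%, 22.1% and 34.7% in the irradiated tumors, with the 4 highest values in technical set 2. The part of RNA quality in the differences between tumors was not tested.

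Relative to its mean, the small subunit part of the ribosomal protein mRNA varied less between tumors than the total amount. Single genes were less steady, and the share of Rpl35 among subunit gene UMIs spanned 2.01 on the log2 scale between tumors in MPNST cells. Small subunit genes supplied 42.7% ± 1.66 of the UMIs of the 97 genes in MPNST cells, 45.3% ± 1.09 in T/NK cells, 45.6% ± 1.02 in macrophages and 43.1% ± 0.961 in pericytes. Of the 73 subunit genes, 62 had over 1000 CPM in MPNST cells, 59 in macrophages and 58 in T/NK cells. CPM here are 3′ UMI counts, which record 1 tag per molecule and are not divided by gene length. The highest was Rpl13, a large subunit protein, in MPNST cells at 4577 CPM and Rps24, a small subunit protein, in T/NK cells at 4595 CPM. The lowest was Rpl4 in both MPNST cells and macrophages, at 483 and 404 CPM. Averaged over tumors and classes, Rps24 had 3202, Rpl23 3169, Rpl13 3056 and Rps20 2776 CPM.

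The next comparison asked which genes differed between MPNST cells and the main host classes within the same tumors, using edgeR's quasi-likelihood test on UMI sums per class and tumor, with tumor as a block and Benjamini-Hochberg adjustment over 15168 genes. Of the 97 genes 90 were tested. Against macrophages, 17 were higher in MPNST cells and 32 lower, where 46.8% of all genes tested were higher and 37.2% lower. Against T/NK cells, 40 were higher and 17 lower, where 45.8% of all genes were higher and 29.1% lower. Macrophages had 42 genes higher than T/NK cells and 8 lower, against 36.1% and 26.5% of all genes.

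These splits depended on the scaling. With library sizes alone in place of TMM normalization, the counts against macrophages became 48 higher and 16 lower, those against T/NK cells 35 and 25, and those of macrophages against T/NK cells 17 and 39. The median log2 fold change of all genes moved from 0.18 to 0.48, from 0.39 to 0.32 and from 0.20 to -0.17 in these 3 comparisons. Relative to the median of all genes, the median of the ribosomal protein genes was nearly the same under both scalings. It was -0.24 under both for MPNST against macrophage, -0.22 under both for MPNST against T/NK, and 0.03 and 0.02 for macrophage against T/NK. Without control 1 and irradiated 2, the 8 genes lower in macrophages than in T/NK cells became 5.

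**Figure D3:**
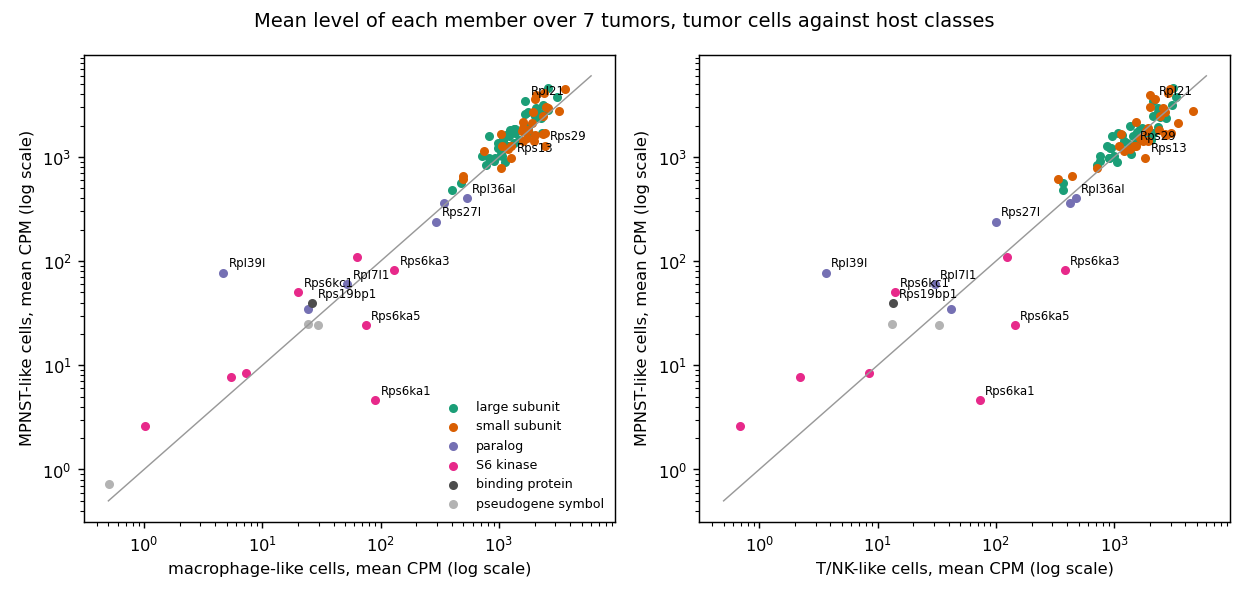
Mean CPM over tumors of each ribosomal protein gene in MPNST cells (vertical axis) against macrophages and against T/NK cells (horizontal axes), on log axes with a line of equality and colors for the kind of gene. Genes near 0 CPM in either class are not drawn. Most subunit genes lie near the line, and Rpl39l and Rps6ka1 lie far from it.

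Among the subunit genes with the largest changes, some were higher and some lower in MPNST cells. Rpl21, a large subunit protein, had a mean of 3448 CPM in MPNST cells, 1669 CPM in macrophages and 2133 CPM in T/NK cells, and was higher in MPNST cells in 7 of 7 tumors (log2 fold change 0.75 ± 0.08 SE against macrophages, edgeR adjusted p = 1.85e-08). Rpl23a, which lines the exit of the peptide tunnel, had 1578 and 817 CPM in MPNST cells and macrophages, a log2 fold change of 0.64 ± 0.09. Rps29 went the other way, at 1281 and 2441 CPM, with a log2 fold change of -1.22 ± 0.08 (adjusted p = 3.24e-12) and lower MPNST levels in 7 of 7 tumors. Rps16, a small subunit protein, had 1698 CPM in MPNST cells, 2434 CPM in macrophages and 3034 CPM in T/NK cells. Its log2 fold changes were -0.83 ± 0.09 and -0.78 ± 0.09, and the direction was the same with library sizes alone. Rps13 likewise was lower in MPNST than in T/NK cells, at 981 against 1822 CPM. Rps15a had 1903 CPM in macrophages and 3476 CPM in T/NK cells, a log2 fold change of -0.52 ± 0.11 (adjusted p = 0.000276).

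Rpl39l showed the largest difference toward MPNST cells among the 97 genes in both comparisons. It encodes the paralog of Rpl39, a short protein in the wall of the tunnel through which the nascent peptide leaves the ribosome. In MPNST cells its level was 89.9, 126 and 37.7 CPM in control 1, 2 and 3 and 69.5, 62.8, 84.0 and 73.1 CPM in irradiated 1, 2, 3 and 4. In macrophages it was 8.06, 4.37 and 3.76 CPM and 1.78, 3.54, 7.63 and 3.60 CPM. No tumor's macrophage value reached the lowest MPNST value. The log2 fold change was 3.76 ± 0.18 (adjusted p = 8.04e-14), with MPNST higher in 7 of 7 tumors. Against T/NK cells it was 4.39 ± 0.31 (adjusted p = 7.17e-11), where the T/NK side rested on 21 UMIs over all tumors and 1 to 7 in each.

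As a share of its pair, Rpl39l made up 2.35%, 4.15% and 1.22% of Rpl39 and Rpl39l UMIs in MPNST cells of the controls and 2.30%, 1.49%, 3.06% and 2.98% in the irradiated tumors. The mean over 7 tumors was 2.51% ± 1.00 in MPNST cells, 0.198% ± 0.0877 in macrophages and 0.123% ± 0.0475 in T/NK cells. Rpl39 was thus the main copy in every class. The MPNST minus macrophage difference was 2.31 ± 0.973 points, and 2.55 points without control 1 and irradiated 2. Irradiated and control tumors overlapped in every class.

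Free tumor RNA in droplets bears on the host values of Rpl39l, so they were set beside MPNST genes that no gate had used. In macrophages those genes reached 0.830% to 2.44% of their MPNST level and Rpl39l 2.55% to 9.96% of its own, from 21 to 125 UMIs per tumor, with Rpl39l above in 7 of 7 tumors. In T/NK cells the ranges were 0.352% to 3.20% and 3.03% to 7.51%. Endothelial and dendritic cells gave 0 to 3 and 0 to 1 Rpl39l UMIs per tumor. Pericytes stood apart at 1.57% ± 1.16 of the pair (n = 6), with Rpl39l at 16.9% to 76.3% of its MPNST level from 3 to 26 UMIs. The unused MPNST genes were at 0.229% to 22.1%, below Rpl39l in 6 of 6 tumors. They were at 0.791% in control 3 and 0.229% in irradiated 2, where Rpl39l was at 76.3% and 16.9% from 11 and 3 UMIs. In the remaining tumors they were at 6.59% to 22.1%. The part of MPNST cells within the pericyte gate was not tested.

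Rps27l separated the classes in another order. Its protein is the close relative of the small subunit protein Rps27. In MPNST cells it had 193, 271 and 283 CPM in the controls and 256, 184, 266 and 219 CPM in the irradiated tumors. Its T/NK level was 102, 97.4 and 149 CPM and 57.5, 101, 88.2 and 103 CPM, below MPNST in every tumor. In macrophages it had 313, 290.4 and 273 CPM in the controls and 257, 309, 314.5 and 304 CPM in the irradiated tumors. The log2 fold change of macrophages against T/NK cells was 1.96 ± 0.14 (adjusted p = 3.21e-11), that of MPNST against T/NK cells 1.34 ± 0.14 (adjusted p = 1.03e-08) and that of MPNST against macrophages -0.61 ± 0.12 (adjusted p = 7.37e-05). All 3 directions held with library sizes alone.

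Within its pair, Rps27l made up 12.3%, 20.5% and 18.3% of UMIs in MPNST cells of control 1, 2 and 3 and 19.7%, 10.6%, 21.4% and 23.4% in irradiated 1, 2, 3 and 4. In macrophages the shares were 23.7%, 30.3% and 29.3% and 28.8%, 23.2%, 31.2% and 34.3%. Control 1 and irradiated 2 gave both lowest values in each class, and they are the libraries with the highest Rps27. The order of the classes was nevertheless the same inside each tumor, since macrophages exceeded MPNST cells in 7 of 7 and MPNST cells exceeded T/NK cells in 7 of 7. The MPNST minus macrophage difference was -10.7 ± 1.18 points, or -10.1 points without both libraries. The MPNST minus T/NK difference was 10.3 ± 4.57 points, or 12.2 points without them.

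**Figure D4:**
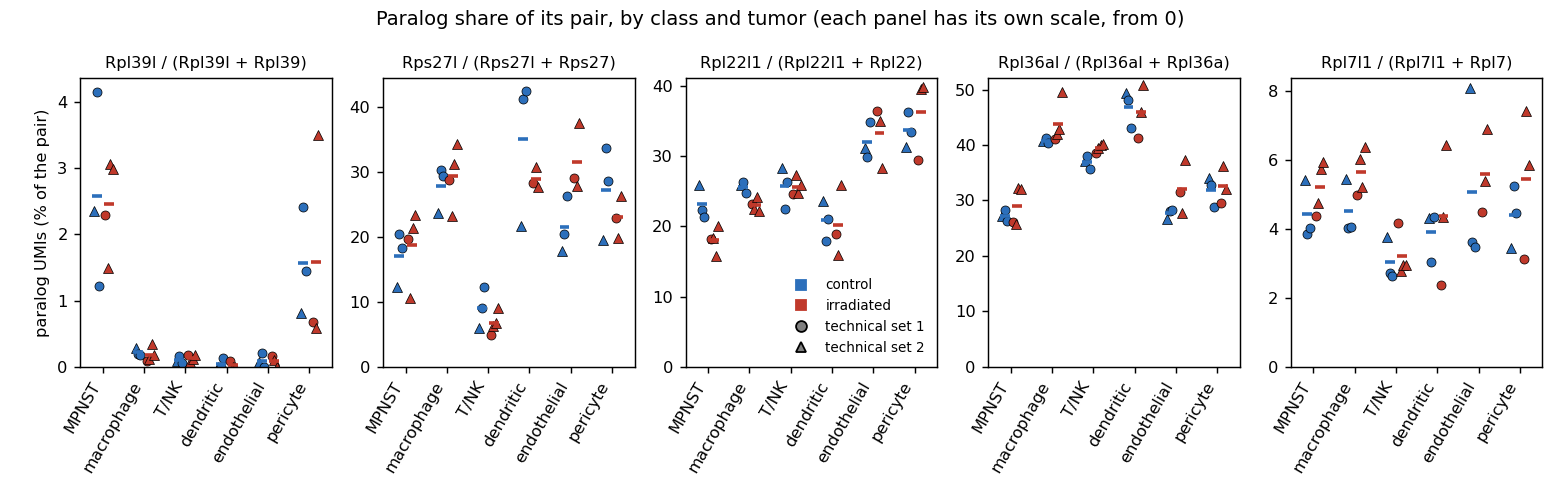
Share of the paralog in the UMIs of its pair (percent) by cell class, with 1 point per tumor and lines at the mean of control and of irradiated tumors, for the 5 pairs with counts in all classes. Rpl39l has its highest mean in MPNST cells, whose range pericytes overlap. Rps27l has its lowest mean in T/NK cells, and Rpl36al is higher in macrophages than in MPNST cells in every tumor.

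Rpl36al, the second gene of the large subunit protein Rpl36a, made up 28.3% ± 2.79 of its pair in MPNST cells, 42.5% ± 3.21 in macrophages and 38.4% ± 1.63 in T/NK cells (n = 7). MPNST cells had the lowest of these 3 values in 7 of 7 tumors. Endothelial cells, at 29.9% ± 3.95, and pericytes, at 32.2% ± 2.77, lay near MPNST cells, and dendritic cells had 46.4% ± 3.71 (n = 6 each). The level of Rpl36al was 399 CPM in MPNST cells and 534 CPM in macrophages, a log2 fold change of -0.72 ± 0.09 (adjusted p = 9.78e-08). Rpl7l1, the paralog of Rpl7 that also acts in ribosome assembly, had 59.8, 52.0 and 30.4 CPM in MPNST cells, macrophages and T/NK cells. Both higher levels differed from T/NK cells, with log2 fold changes of 1.03 ± 0.14 (adjusted p = 6.77e-07) and 1.15 ± 0.14 (adjusted p = 1.93e-07). Between MPNST cells and macrophages its fold change of -0.12 ± 0.10 became 0.18 with library sizes alone, and neither passed the test.

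Rpl22l1, the paralog of the large subunit protein Rpl22, was lower within its pair in MPNST cells, at 20.3% ± 3.28, than in macrophages at 24.1% ± 1.61 and T/NK cells at 25.7% ± 1.93. The direction held in 7 of 7 tumors for both. Its own level did not pass the test between MPNST cells and macrophages (log2 fold change -0.24 ± 0.11, adjusted p = 0.0540), and the sign turned with library sizes alone, to 0.06. The highest pair shares of Rpl22l1 were in pericytes, 34.99% ± 4.28, and endothelial cells, 32.6% ± 3.28 (n = 6 each).

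Rpl3l, Rpl10l and Rps23rg1 were near absence. Rpl3l, the striated muscle copy of Rpl3, had 0 to 10 UMIs per tumor in MPNST cells and 1 to 8 in macrophages, and Rpl10l had 1 UMI each in irradiated 1 and irradiated 2 among MPNST cells. Rps23rg1, a retroposed copy of Rps23, had 0 to 2 UMIs per tumor in MPNST cells and none in macrophages or T/NK cells. Rps27rt, Rpl9-ps6 and Rpl10-ps3 are nearly identical to their parent genes, so their counts are uncertain because reads can be split between copies.

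Among the 90 genes tested, the fold change of largest size was that of the kinase gene Rps6ka1. It encodes RSK1, which acts downstream of ERK. In MPNST cells it had 4.78, 4.30 and 4.93 CPM in the controls and 5.32, 6.82, 3.12 and 3.21 CPM in the irradiated tumors, and in macrophages 79.4 to 103 CPM. The log2 fold change was -4.59 ± 0.15 (adjusted p = 4.51e-17), and that against T/NK cells, which had 49.0 to 88.2 CPM, was -3.94 ± 0.17 (adjusted p = 8.83e-15). Every host value in these classes lay above every MPNST value.

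Rps6ka5, encoding the nuclear kinase MSK1, had 24.2 CPM in MPNST cells, 74.96 CPM in macrophages and 145 CPM in T/NK cells. Its log2 fold changes were -1.93 ± 0.09 and -2.51 ± 0.10 for MPNST against each host class. Rps6ka3, encoding RSK2, had 81.8, 130.4 and 381 CPM in the same order. Rps6kb1, encoding the S6 kinase of the mTORC1 pathway, was lowest in macrophages, at 63.0 CPM, with 110.3 CPM in MPNST cells and 124 CPM in T/NK cells, and its macrophage against T/NK fold change was -0.60 ± 0.08 (adjusted p = 8.24e-07). Rps6kc1 was higher in MPNST cells, at 50.1 against 20.1 CPM in macrophages and 13.9 CPM in T/NK cells. Rps6ka4 and Rps6ka2 were called higher in MPNST than in T/NK cells from means under 10 CPM. Rps19bp1, which encodes a partner of Rps19 and of the deacetylase Sirt1, had 39.2, 26.5 and 13.5 CPM in MPNST cells, macrophages and T/NK cells.

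The comparison of irradiated with control tumors asked whether single ribosomal protein genes differed at the harvest on day 21. In MPNST cells edgeR called 0 of 17347 genes, with 214 at an unadjusted p under 0.05 (1.23% of genes), and DESeq2 called 0. Of the 92 ribosomal protein genes tested, 1 had an unadjusted p under 0.05 and 1 had groups that did not overlap in CPM, against 2.24% of all genes. In macrophages edgeR called 0 of 12912 genes, with 749 unadjusted (5.8%), and DESeq2 called 4, none of them a ribosomal protein gene. Of the 90 tested there, 1 was under 0.05 unadjusted and 2 did not overlap, against 5.6% of all genes. For T/NK cells edgeR called 0 of 7513 genes, with 399 unadjusted (5.31%), and DESeq2 called 1, again no ribosomal protein gene. Of the 86 tested, 3 were under 0.05 unadjusted and 5 did not overlap, against 6.43%.

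Most fold changes had the same sign while being small against their errors. The median log2 fold change of the ribosomal protein genes was -0.21 in MPNST cells, -0.10 in macrophages and -0.12 in T/NK cells, beside -0.02, -0.01 and 0.00 over all genes. Small subunit genes were lower in irradiated MPNST cells and macrophages for 30 of 30 genes, and in T/NK cells for 29 of 30, with no gene called. Over all genes tested, 9422 of 17347, 6617 of 12912 and 3735 of 7513 were lower in these 3 classes. Of the mitochondrial ribosomal protein genes, 74 of 78 were lower in MPNST cells (median -0.16), 35 of 78 in macrophages and 36 of 68 in T/NK cells. Of 24 translation factor and other 5′ TOP genes, 24, 22 and 18 were lower. Of 30 ribosome biogenesis genes, 15 were lower in MPNST cells. The lower direction of the ribosomal protein genes was not kept in MPNST cells once the technical set entered the fit. With that set as a term the median was 0.03 and 60 of 92 genes were higher in irradiated tumors. Without control 3 it was 0.00 with 45 of 92 higher, and without irradiated 4 it was -0.07 with 24 of 92 higher. It was -0.35 without control 1, -0.30 without irradiated 1 and -0.39 without control 1 and irradiated 2. In macrophages and T/NK cells the median with the term was -0.08 and -0.13. The macrophage median was -0.03 without control 2, with 33 of 90 genes higher. The genes were measured in the same libraries, so the number of genes with a sign is not a number of independent observations.

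**Figure D5:**
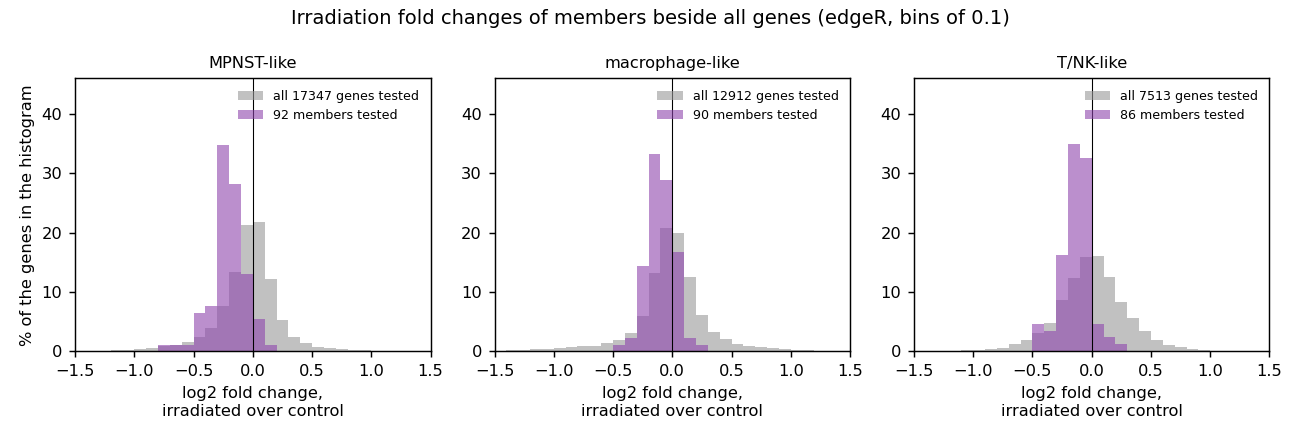
Distribution of log2 fold changes of irradiated against control tumors (horizontal axis) as a percentage of genes (vertical axis) for all genes tested (gray) and for the ribosomal protein genes (purple, called members) in MPNST cells, macrophages and T/NK cells. The ribosomal protein genes center at -0.21, -0.10 and -0.12, and no gene was called.

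Rpl22l1 had the lowest fold change of the ribosomal protein genes in irradiated MPNST cells and did not pass adjustment. Its level was 376, 463 and 523 CPM in control 1, 2 and 3 and 356, 309, 267 and 256 CPM in irradiated 1, 2, 3 and 4. All irradiated values lay below all control values. The log2 fold change was -0.70 ± 0.22, with an unadjusted p of 0.0119 and an edgeR adjusted p of 1.00. In macrophages it was -0.36 ± 0.13 (unadjusted p of 0.0233, adjusted p of 0.774), and control and irradiated values overlapped at 344, 455 and 377 CPM against 322, 292, 353.5 and 273 CPM. In T/NK cells the fold change was -0.16 ± 0.14 (unadjusted p of 0.264).

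The pair share of Rpl22l1 was also lower in irradiated MPNST cells and macrophages, on a scale that needs no normalization between libraries but reuses the same Rpl22l1 counts. In MPNST cells it was 25.8%, 22.3% and 21.3% in the controls and 18.2%, 18.3%, 15.7% and 20.1% in the irradiated tumors, with means of 23.1% ± 2.38 and 18.1% ± 1.79. In macrophages it was 25.9%, 26.4% and 24.7% and 23.1%, 22.5%, 24.1% and 22.2%, with means of 25.6% ± 0.857 and 23.0% ± 0.839. Neither class had overlapping groups, although the CPM of macrophages had overlapped. The common copy Rpl22 was itself lower in control 1 and irradiated 2, by a mean log2 difference of -0.20 from the other libraries. Without control 1 the MPNST difference was -3.70 points and the groups still did not overlap, and it was not computed without both libraries. Among the libraries of technical set 1 the MPNST difference was -3.55 points, and among those of set 2 it was -7.77 points. For macrophages these values were -2.43 and -2.91 points. The means in T/NK cells were 25.7% ± 2.97 and 25.6% ± 1.23, with full overlap.

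Over 5 pairs and 6 classes, groups did not overlap for 4 of 30 combinations, beside the 2.24%, 5.6% and 6.43% of all genes whose CPM did not overlap in the 3 tested classes. Those percentages are for single-gene CPM with 4 against 3 tumors and are not a matched background. Pair shares of dendritic cells, endothelial cells and pericytes compared 3 against 3 tumors, where separation by chance is more frequent. Besides Rpl22l1 in MPNST cells and macrophages, the combinations without overlap were Rpl36al in T/NK cells and Rps27l in endothelial cells. Rpl36al was at 39.5% ± 0.737 irradiated against 36.9% ± 1.14 control. Rps27l was at 31.5% ± 5.24 against 21.5% ± 4.34 with 3 tumors each, and was not recomputed without control 1. Whether a pair responded differently between classes was tested for 15 differences with an exact two-sided permutation test over tumors. The lowest p was 0.0571, for Rpl22l1 in MPNST minus T/NK cells (adjusted p = 0.771). There the within-tumor difference was -7.53 ± 1.66 points in irradiated and -2.59 ± 2.44 points in control tumors. A p of 0.0571 is the smallest that this test, as run, can give with 4 against 3 tumors. None of the 15 differences could therefore have passed the threshold, so the test cannot decide the question.

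The other genes with the largest fold changes in MPNST cells were Rpl9-ps6 at -0.68 ± 0.51, the small subunit genes Rps15a at -0.51 ± 0.34 and Rps3a1 at -0.47 ± 0.34, and the large subunit gene Rpl34 at -0.45 ± 0.31. The largest positive values were 0.10 ± 0.13 for Rps6kc1, 0.07 ± 0.21 for Rps6ka4, 0.06 ± 0.19 for the large subunit gene Rpl10, 0.05 ± 0.17 for Rps6kb2 and 0.04 ± 0.26 for Rpl38. Of these, Rps6ka4 and Rpl38 turned sign with the technical set as a term. In macrophages the lowest were Rpl39l at -0.41 ± 0.45, Rps15a at -0.37 ± 0.19 and Rpl22l1, and the highest was Rps6kb2 at 0.23 ± 0.13, which encodes a second S6 kinase and whose groups did not overlap. Rpl7l1 also did not overlap there, with 53.9 CPM irradiated and 49.6 CPM control, a log2 fold change of 0.10 ± 0.08. The lowest fold changes in T/NK cells were those of Rpl10-ps3 at -0.49 ± 0.39, Rps6kc1 at -0.49 ± 0.43, Rps19bp1 at -0.44 ± 0.38, Rps27l and Rpl35 at -0.32 ± 0.44. The highest were Rps6ka1 at 0.24 ± 0.22, Rps27rt at 0.14 ± 0.39, Rpl41 at 0.11 ± 0.24, Rps6 at 0.06 ± 0.17 and Rpl4 at 0.06 ± 0.14, and none passed the test. The 5 genes without overlap in T/NK cells were Rpl21, Rpl36a, Rps15, Rpl8 and Rps3a1, named after their values were seen, and all were lower in irradiated tumors. Rps27l in T/NK cells had 87.4 CPM irradiated and 116 CPM control, a log2 fold change of -0.43 ± 0.21 (adjusted p = 0.948).

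Neighboring gene groups were counted in the same fits, beside 45.8% of all genes higher and 29.1% lower for MPNST against T/NK cells, 36.1% and 26.5% for macrophages against T/NK cells, and 46.8% and 37.2% for MPNST cells against macrophages. Among 78 mitochondrial ribosomal protein genes, 54 were higher and 5 lower in MPNST than in T/NK cells, led by Mrpl47 at 1.64 ± 0.24 and Mrps17 at 1.59 ± 0.13. In macrophages against T/NK cells 63 were higher and 2 lower. In MPNST cells against macrophages 18 were higher and 40 lower, with Mrps6 at 2.29 ± 0.15 and Mrpl33 at -1.43 ± 0.09. Of 30 ribosome biogenesis genes, 18 were higher and 7 lower in MPNST cells than in macrophages, among them Gar1, a protein of the pseudouridylation complex, at 1.55 ± 0.11. With library sizes alone the mitochondrial counts were 51 higher and 5 lower, 46 and 4, and, for MPNST cells against macrophages, 32 and 23, so the split of the last turned. The biogenesis count became 21 higher and 4 lower. Fau, which encodes a small subunit protein outside the symbol pattern, was lower in MPNST cells than in macrophages, at -1.37 ± 0.10, and than in T/NK cells, at -1.04 ± 0.10. None of these groups had a gene called between irradiated and control tumors by edgeR, and at an unadjusted p under 0.05 the mitochondrial group had 0, 1 and 2 genes in MPNST cells, macrophages and T/NK cells.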

How the data were processed

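UMI counts per gene and cell were deposited by the authors for 7 libraries as count matrices, aligned to mm10 per the labels. The file headers name Cell Ranger 8.0.0, and the submitters' processing notes name Cell Ranger and Seurat 4.4. No doublet caller was run here, and doublets were limited by gates that refuse markers of other classes. Gate thresholds were set after the marker counts were seen. The ribosomal protein genes, pairs and lists were chosen with earlier results of these data known. Named genes were the paralog pairs, the 5 highest genes, the kinases and Rps19bp1, and the 5 largest changes in each direction of each comparison. Some items are not reported here.

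UMI counts were summed per class and tumor and tested with edgeR 4.0.16 (filterByExpr, TMM, robust quasi-likelihood) in R 4.3.3, with an adjusted p threshold of 0.05. DESeq2 1.42.0 was an alternative. Shares and CPM were computed from the same sums with Python 3.11.15. The test was checked on simulated data, where 200 genes changed by 2 on the log2 scale were recovered at 81.5% for the MPNST comparison of 17347 genes, 91.5% for macrophages and 87.5% for T/NK cells. False calls were 9.94%, 8.04% and 4.37% of the calls there, the first and second above the threshold. The irradiation fold change of largest size among the ribosomal protein genes was -0.70, in MPNST cells, and recovery of changes that small was not checked. Replicates are separate tumors by the labels, and errors are SD over tumors or SE of the fit. Replicate numbers did not pair tumors, with correlations of deviations from -0.60 to 0.17. Coding lengths came from GENCODE vM21 and promoters from RefSeq GRCm38.p6. Protein sequences were not used here.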

Additional observations from a re-analysis of the deposited data

Results flagged for a closer look

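The share of Rpl7l1 in its pair with Rpl7 was 4.17% in T/NK cells of irradiated 1, while the other 3 irradiated tumors lay between 2.79% and 2.96%. The gap to the nearest tumor was 0.875 of the group's range, above the limit of 0.829 for 4 samples. Of 25 groups of 4 tumors examined in this way 1 stood out, and chance alone gives about 1 in 20. The value rests on 29 Rpl7l1 UMIs.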

How the results depend on the processing

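Over 124 results and 1761 settings, 1664 kept their direction and side of the threshold or, for shares without a test, moved by less than the spread between tumors, 49 changed direction, 22 moved, 9 were weaker and 17 stronger; the cause was not tested for any change beyond what the setting itself removes. No ribosomal protein gene was called between irradiated and control tumors under any setting.

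For the share of UMIs, irradiated minus control was 2.21 points in dendritic cells within technical set 1, -3.10 in endothelial cells within set 2 and 1.395 in pericytes within set 1. Signs of shares turned in 7 settings that are not among the 49. These were that pericyte value (-1.20 overall), MPNST cells (-1.32) at 0.701 within set 2 and 0.016 with the set as a term, dendritic cells (0.572) at -0.363 within set 2 and -0.211 without irradiated 1, and MPNST minus dendritic (0.667) at -0.0787 without control 3 and -0.810 with medians over cells. The cycling minus not cycling difference in MPNST cells was 3.20 points in the middle of the UMI range. The Rpl22l1 pair share in MPNST cells was -7.77 points within set 2, and that of Rpl36al in T/NK cells 1.66 points within set 1. Over all genes, DESeq2 called 4 in macrophages and 1 in T/NK cells, where testing every gene with at least 1 UMI called 45 and the technical set term 2. Between classes, library sizes alone gave 48 higher and 16 lower for MPNST against macrophage and 17 higher and 39 lower for macrophage against T/NK. DESeq2 gave 27 lower for MPNST against T/NK. Testing every gene, or leaving out control 1 and irradiated 2 (chosen after seeing the data), gave 5 lower for macrophage against T/NK. Leaving out 1 tumor at a time, the counts ranged from 10 to 17 higher for MPNST against macrophage, 13 to 27 lower for MPNST against T/NK and 5 to 8 lower for macrophage against T/NK.

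Directions of single fold changes that turned were as follows. In MPNST cells the technical set term gave Rpl9-ps6 0.15, Rpl38 -0.020, Rps6ka4 -0.075 and Rps27l 0.040, and leaving out control 1 and irradiated 2 gave Rpl38 -0.0025, Rps6kb2 -0.039 and Rpl10 -0.0062. In macrophages Rps27l was 0.0019 with DESeq2, 0.0018 with its size factors, 0.0014 with every gene, 0.00077 with no cell filter and 0.018 without control 1 and irradiated 2, where Rpl39l was 0.053. The technical set term gave Rpl9-ps6 0.11. In T/NK cells that term gave Rpl4 -0.012, Rps6 -0.0622 and Rpl41 -0.10, and leaving out both libraries gave Rpl35 0.34, Rps6 -0.0620 and Rps27rt -0.43. Between classes, library sizes alone gave Rpl22l1 0.057 and Rpl7l1 0.18 for MPNST against macrophage, and Rpl22l1 -0.31 for macrophage against T/NK, which was -0.0520 with DESeq2 and -0.0516 with its size factors. Rps27 was 0.057 for MPNST against T/NK with every gene tested. Leaving out 1 tumor, the MPNST ranges were Rpl10 -0.049 to 0.21, Rpl38 -0.17 to 0.22, Rpl39l -0.59 to 0.15, Rpl9-ps6 -1.09 to 0.10, Rps6ka4 -0.044 to 0.22 and Rps6kb2 -0.055 to 0.17. Those in T/NK cells were Rpl35 -0.60 to 0.46, Rpl4 -0.0098 to 0.10, Rpl41 -0.14 to 0.26, Rps27rt -0.14 to 0.61 and Rps6 -0.066 to 0.17, and in macrophages Rpl9-ps6 -0.66 to 0.20, Rps27l -0.045 to 0.049 and Rps6ka4 -0.053 to 0.40.

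Replicate numbers did not pair the tumors. The replicate block gave an Rpl22l1 pair difference of -5.70 points in MPNST cells and -2.39 in macrophages, turned Rps6ka4 in macrophages to -0.10 and Rpl4 and Rps6 in T/NK cells to -0.0084 and -0.030, and changed no call.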

Other observations

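Cells that entered none of the gates, 5926 of 34956 kept cells, had a ribosomal protein share of 13.0% to 16.9% per tumor. The share lay above that of the MPNST cells in 6 of 7 tumors, and in control 3 both were 16.9%. Their median depth ranged from 2098.5 UMIs per cell in irradiated 1 to 34602 in control 1, so the group is not of 1 kind. These values enter no comparison above.

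Rps27rt, the retroposed copy of Rps27, followed neither its parent nor Rps27l across tumors. In MPNST cells it had 18.8, 33.2 and 63.5 CPM in control 1, 2 and 3 and 23.4, 46.3, 30.1 and 27.8 CPM in irradiated 1, 2, 3 and 4. In macrophages the same tumors gave 14.6, 22.6 and 33.3 CPM and 15.3, 33.6, 26.15 and 25.6 CPM. Control 3 and irradiated 2 were the 2 highest in both classes, and reads can be split between Rps27rt and Rps27.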
